A study of Mus musculus with 34 samples.

Results

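The mesothelium is the single layer of flat cells that covers the lung surface and lines the chest cavity. It was followed here in whole-lung RNA through 6 genes that mark it: Msln, Upk3b, Upk1b, Wt1, Lrrn4 and Muc16. The genes were chosen because inhaled fibres can reach the pleura. Each was represented by the array probe whose RefSeq accession belongs to it, and where several probes would match, by the probe with the brightest lung signal. Of the 6 genes, 5 matched a probe, 1 each, among 20659 genes that could be named on the array. No probe was matched to Muc16, so it was not analysed here.

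Female C57BL/6 mice, 5 to 7 weeks old by the labels and with no genetic change named, received 1 instillation into the trachea and were killed on day 28. The instilled carbon nanotube materials were NRCWE-043, NRCWE-044 and NRCWE-045, at 18 or 54 µg in 40 µl, and the labels do not say what the control mice received. The control group held 5 mice. NRCWE-043 was given to 5 mice per dose, NRCWE-044 to 6 at the lower and 5 at the higher dose, and NRCWE-045 to 3 and 5. RNA from random pieces of frozen lung (200 ng) carried the dye Cy5 on 34 two-colour arrays, 1 per mouse, and a reference RNA pooled from 11 mouse cell lines carried Cy3. Each value below is a log2 ratio of lung to that reference RNA, so a ratio describes 1 gene across lungs and does not rank the genes against each other. A random piece of lung holds an uncontrolled amount of pleural surface, and in such bulk RNA fewer mesothelial cells and less RNA per cell cannot be told apart.

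Mesothelial cells secrete a lubricating fluid that lets the lung slide, form a barrier, and belong to the sites at which long fibres are retained. Mesothelin (Msln) is a surface protein anchored in the membrane by a lipid, and it binds the membrane mucin Muc16. Upk3b and Upk1b encode uroplakins, membrane proteins named for the plaques of bladder epithelium, of which Upk1b is a tetraspanin. Wt1 is a zinc finger transcription factor of the embryonic and adult mesothelium, and Lrrn4 encodes a membrane protein with leucine-rich repeats.

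The promoters of Upk3b and Lrrn4 are shown because, among the measured genes, only these had a promoter window. No window was held for Msln, Upk1b or Wt1. Upk3b and Lrrn4 were also the genes that followed the other mesothelial genes most closely from lung to lung. Promoter windows were held for 3 of the 6 genes, from 250 bases before to 50 after a transcript start (RefSeq, build GRCm38.p6). The Upk3b window is chr5:136038246-136038545 on the plus strand. The Lrrn4 window is chr2:132880813-132881112 on the minus strand, inside the annotated span of the gene. Capitals mark GGAATG or its reverse complement CATTCC, the core motif that TEAD transcription factors recognise.
Upk3b: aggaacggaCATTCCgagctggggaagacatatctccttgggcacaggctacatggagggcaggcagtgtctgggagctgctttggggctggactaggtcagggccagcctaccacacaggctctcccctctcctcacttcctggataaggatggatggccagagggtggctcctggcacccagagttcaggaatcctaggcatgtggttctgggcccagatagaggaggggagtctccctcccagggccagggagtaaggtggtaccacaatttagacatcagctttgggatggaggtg
Lrrn4: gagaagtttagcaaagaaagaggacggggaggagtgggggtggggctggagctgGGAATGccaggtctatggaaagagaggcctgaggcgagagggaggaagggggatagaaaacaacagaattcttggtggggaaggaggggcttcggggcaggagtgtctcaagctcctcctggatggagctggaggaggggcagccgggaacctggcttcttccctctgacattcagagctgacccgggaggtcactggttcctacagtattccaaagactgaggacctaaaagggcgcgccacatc
Each window holds 1 such match, starting at position -241 from the transcript start of Upk3b and at -196 from that of Lrrn4, in opposite orientations. Among 32851 promoter windows of this length, 14.7% hold the motif on either strand. The window of Muc16 at chr9:18674554-18674853 holds 0. No GC box (GGGCGG, 35.7% of windows, either strand) and no TATAAA (13.6%) was found in the 3 windows. An E box (CANNTG, 72.3%) was found in those of Upk3b and Muc16 but not of Lrrn4. These matches describe letters in the windows only.

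All 5 measured genes were well above background in both channels on 34 of 34 arrays. Their median Cy5 signals were 12664.25 for Msln, 812.25 for Upk3b, 681.875 for Upk1b, 717.5 for Wt1 and 276.75 for Lrrn4 (scanner brightness units), against a local background of 64 to 80 over all 5. Msln lies at chr17:25748613-25754378, Upk3b at chr5:136038496-136044993, Upk1b at chr16:38773182-38800203, Wt1 at chr2:105126529-105173614 and Lrrn4 at chr2:132866686-132894010 (GRCm38.p6). The 10 spots of the Upk1b probe on each array had a median SD of 0.11 on the log2 scale. The SD between lungs within groups, pooled over the groups, was 0.30, or 0.23 without replicate 6 of NRCWE-044 at 18 µg. The tissue carried its label: the surfactant gene Sftpc had log2 ratios of 7.09 to 8.93 and the alveolar type 1 cell gene Ager 5.14 to 6.59. The share of probes that stood well above background in the lung channel was 50.8 to 68.5% per array, and the median correlation of an array with the others was 0.926 to 0.969. The arrays sat on 6 slides of 4 to 8, each scanned on its own day, and controls were on 4 of them. One lung stood apart from the rest in the mesothelial genes, replicate 6 of NRCWE-044 at 18 µg, and the results that it moved most are also given without it.

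None of the 5 genes passed the test in any of 19 comparisons (limma, Benjamini-Hochberg over 29310 probes or genes tested, threshold 0.05). Their adjusted p-values ran from 0.736 to 0.99996 over 95 tests. The share of all tested units that passed was 0% in each of the comparisons with the controls. It was 0.0102% between NRCWE-043 and NRCWE-044 at 18 µg, 0.43% between NRCWE-043 and NRCWE-045 at 18 µg, 0.00341% between the same materials at 54 µg, and 0% elsewhere. Of the 95 tests, 2 had an unadjusted p under 0.05, both of Upk1b, while 2.36 to 10.7% of all units had one in a comparison.

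**Figure D1:**
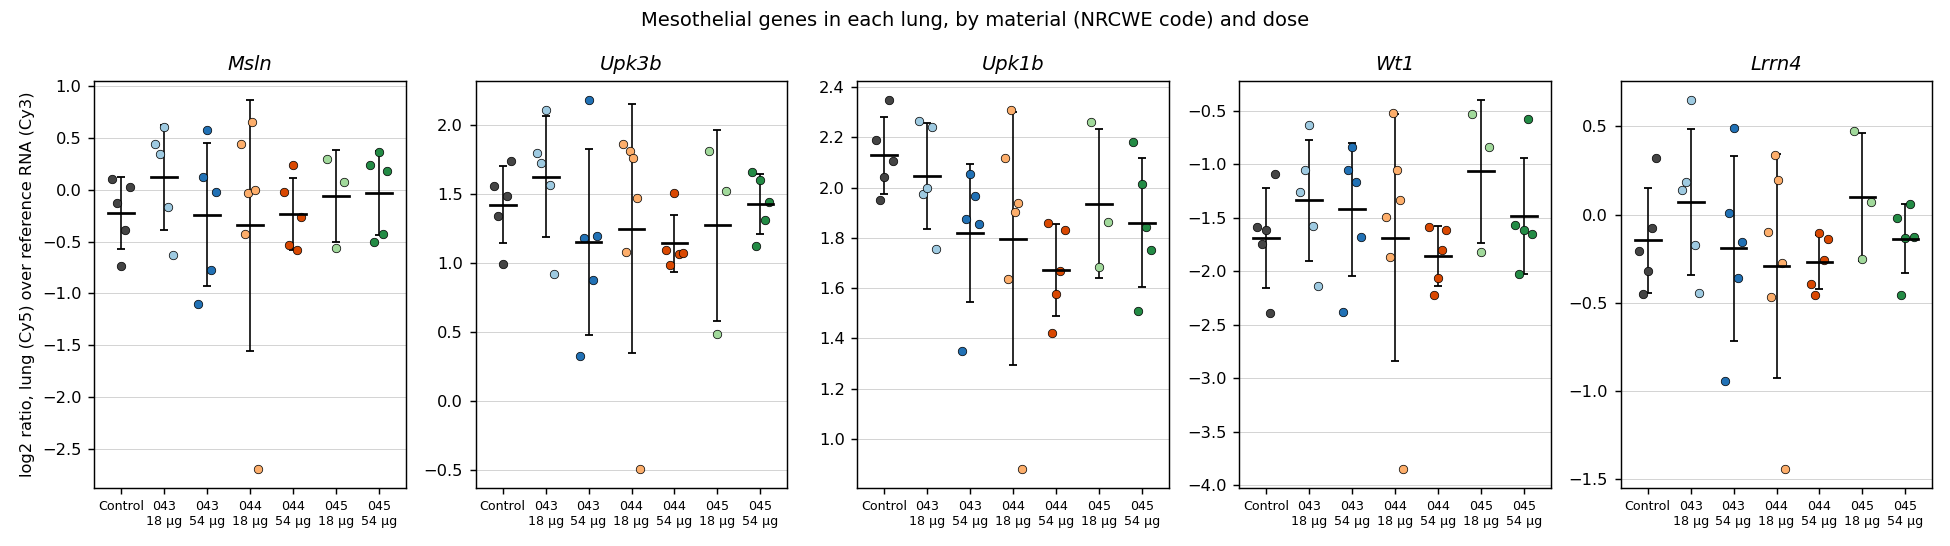
Log2 ratio of lung over reference RNA for the 5 mesothelial genes (1 panel each, own axis), by material and dose; points are lungs, thick lines group means, error bars SD. Upk1b has its highest mean, 2.13, in the controls, and the lowest point of every panel is the same lung of NRCWE-044 at 18 µg.

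Upk1b was the gene nearest to a difference between exposed and control lungs. In the 5 controls its log2 ratio was 2.19, 1.95, 2.04, 2.35 and 2.10. With 54 µg of NRCWE-044 it was 1.86, 1.42, 1.58, 1.67 and 1.83, so that all 5 lungs lay below every control. Such a complete separation below the controls was seen for 0.604% of all tested units in that comparison, and for 1 of the 5 mesothelial genes. The mean was 1.67 ± 0.18 (SD, n = 5) against 2.13 ± 0.15 in the controls. The difference was -0.46 (SE 0.18, 95% confidence interval -0.82 to -0.09), a 0.728-fold level. With slide as a block it was -0.46 (limma adjusted p = 0.291). The difference did not pass the test across all units (limma, unadjusted p = 0.0163, adjusted p = 0.736), and 5.85% of all units had an unadjusted p under 0.05 there. The mean log2 ratio of 10 heart muscle genes, from a tissue removed at the same necropsy, was 1.38 to 3.42 in the controls and 0.25 to 4.83 in this group, and its part in the Upk1b difference was not tested.

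The higher dose of NRCWE-043 gave Upk1b values of 1.35, 1.87, 2.06, 1.97 and 1.86, with 3 lungs below every control. The same dose of NRCWE-045 gave 2.18, 1.51, 2.01, 1.84 and 1.75, again with 3 lungs below every control. Both groups overlapped the controls. Averaged over the 3 groups at 54 µg the difference was -0.34 (SE 0.15, interval -0.64 to -0.04, limma adjusted p = 0.821), and 14 of 15 lungs lay below the control mean. The unadjusted p was 0.0257, and 5.61% of all units had one under 0.05 in that comparison. On the 4 slides with controls, the 54 µg lungs differed from the control lungs of the same slide by -0.27, -0.44, -0.47 and -0.31 on the log2 scale, with 2, 1, 1 and 1 controls. With slide as a block the difference was -0.32 (SE 0.13, limma adjusted p = 0.396).

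At 18 µg Upk1b was 2.27, 1.98, 2.00, 2.24 and 1.76 with NRCWE-043 and 2.26, 1.68 and 1.86 with NRCWE-045. With NRCWE-044 it ran from 0.88 through a median of 1.92 to 2.31 over 6 lungs. All 3 groups overlapped the controls. The difference from the controls averaged over the 18 µg groups was -0.20 (SE 0.15, interval -0.51 to 0.10, limma adjusted p = 0.999), and -0.14 without the lowest lung. Over both doses, 24 of 29 exposed lungs lay below the control mean, 18 below the lowest control and 0 above the highest. These counts were not made for all tested units. Averaged over all exposed groups the difference was -0.27 (SE 0.14, interval -0.55 to 0.01, limma adjusted p = 0.99990). The 6 differences of single groups from the controls were all below 0, from -0.46 to -0.08, but they share the same 5 controls. The smallest, with 18 µg of NRCWE-043, changed sign in 4 of 22 alternatives and was 0.05 with slide as a block.

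For mesothelin the differences between groups were smaller than the spread of single lungs. Its log2 ratio was 0.11, -0.13, -0.74, -0.39 and 0.03 in the controls. The exposed lungs ran from -2.69 to 0.65, with 3 of 29 below every control and 12 above every control. Over all exposed groups the difference was 0.09 (SE 0.31, interval -0.53 to 0.72, limma adjusted p = 0.99990). Against single groups it ran from -0.12 with 18 µg of NRCWE-044 to 0.34 with 18 µg of NRCWE-043. The first of these was 0.35 without the lowest lung.

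Upk3b was 1.56, 1.34, 0.99, 1.49 and 1.74 in the controls. The exposed lungs reached from -0.49 to 2.19, with 6 of 29 below and 7 above every control. The groups overlapped, and the difference over all exposed groups was -0.11 (SE 0.25, interval -0.63 to 0.40, limma adjusted p = 0.99990). With 54 µg of NRCWE-044 the lungs were close together, at 1.09, 0.98, 1.51, 1.07 and 1.08. The lungs with 54 µg of NRCWE-043 spread over 0.33, 1.18, 2.19, 0.88 and 1.19, which holds the highest lung of all 34 and the second lowest.

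Wt1 was -1.59, -1.75, -1.61, -2.39 and -1.09 in the controls. Its largest difference from them was 0.62 (SE 0.47, interval -0.33 to 1.58, limma adjusted p = 0.818) with 18 µg of NRCWE-045, from lungs at -0.53, -1.82 and -0.84. Of these 3 lungs, 2 lay above every control. The difference was 1.00 without replicate 2 of this group and 0.36 without replicate 1. Over all exposed groups the difference was 0.21 (SE 0.31, interval -0.42 to 0.84, limma adjusted p = 0.99990).

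Lrrn4 was -0.21, -0.45, -0.32, -0.08 and 0.32 in the controls. The exposed lungs ran from -1.45 to 0.65, with 5 of 29 below and 4 above every control. The difference over all exposed groups was 0.03 (SE 0.19, interval -0.36 to 0.41, limma adjusted p = 0.99990), the smallest of the 5 in size. With slide as a block, these differences of all exposed groups were 0.33 for Msln, 0.04 for Upk3b, where the sign turned, -0.21 for Upk1b, 0.25 for Wt1 and 0.10 for Lrrn4 (limma adjusted p from 0.677 to 0.983). Leaving out the lowest lung, they were 0.17, -0.05, -0.24, 0.28 and 0.06 in the same order. The group that holds this lung, NRCWE-044 at 18 µg, differed from the controls by -0.12 for Msln, -0.17 for Upk3b, -0.33 for Upk1b, -0.00 for Wt1 and -0.15 for Lrrn4. Without the lung these differences were 0.35, 0.17, -0.15, 0.43 and 0.08, so that the sign turned for all but Upk1b.

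**Figure D2:**
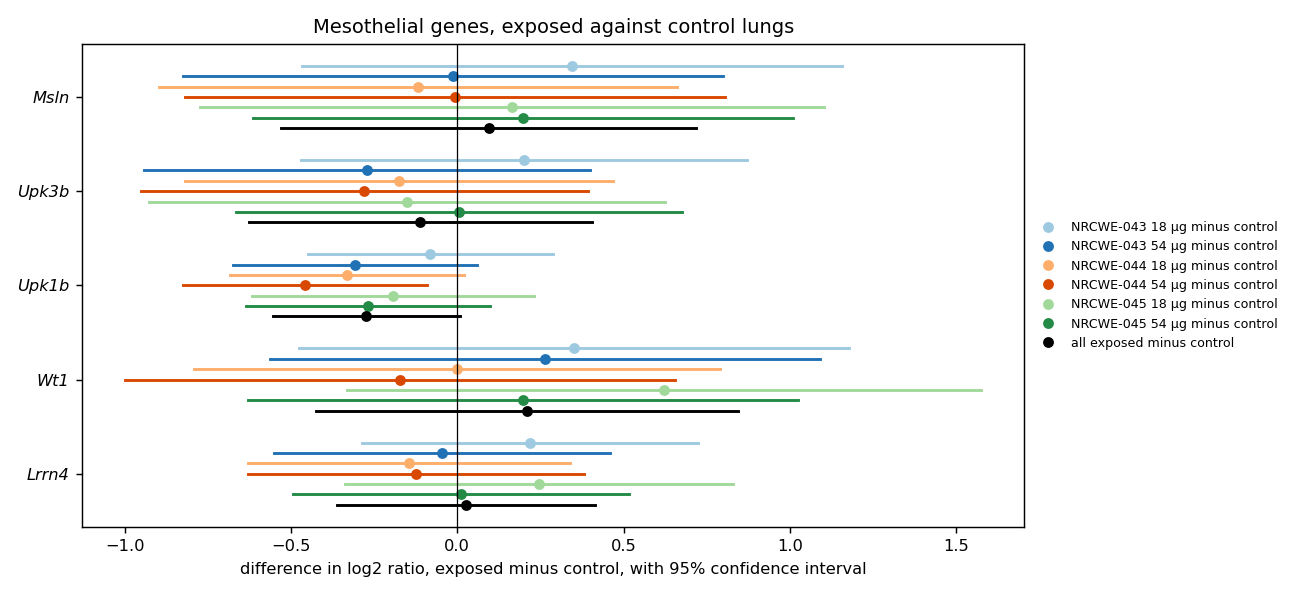
Difference in log2 ratio between each exposed group, or the mean of all exposed groups (black), and the 5 controls for each mesothelial gene; points are differences and lines 95% confidence intervals. Of the intervals drawn, that of Upk1b with 54 µg of NRCWE-044, -0.82 to -0.09, is the one that does not reach 0.

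Ordered by group mean, the controls ranked 1 of the 7 groups for Upk1b, 3 for Upk3b, 4 for Msln and Lrrn4 and 5 for Wt1. The groups with 18 µg of NRCWE-043 or NRCWE-045 were highest for Msln, Upk3b, Wt1 and Lrrn4. Without the lowest lung, NRCWE-044 at 18 µg moved from last to first of the 7 groups for Msln (mean 0.13 against 0.12 with 18 µg of NRCWE-043). The controls then ranked 1 for Upk1b, 4 for Upk3b, 5 for Msln and Lrrn4 and 6 for Wt1. Steps between neighbours in a sorted order are parts of the whole range, so their size does not test whether groups differ. Of the 6 steps per gene, 0 exceeded the smaller SD of the 2 neighbours for Msln, Upk3b, Upk1b and Wt1. For Lrrn4 1 step did, the step of 0.21 from 18 µg of NRCWE-043 down to 54 µg of NRCWE-045, and without the lowest lung 0 steps did. From the highest to the lowest group the mean fell by 0.46 for Msln, 0.48 for Upk3b, 0.46 for Upk1b, 0.79 for Wt1 and 0.39 for Lrrn4 on the log2 scale. The fall without the lowest lung was 0.37 for Msln and for Lrrn4, and the same for the other three genes.

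The 3 materials were compared with each other at the same dose in 6 pairs, with p-values adjusted within each pair over all 29310 units. The widest difference in a mesothelial gene was -0.62 for Wt1 between NRCWE-044 and NRCWE-045 at 18 µg (SE 0.45, interval -1.55 to 0.30, limma adjusted p = 0.910), or -0.19 without the lowest lung. It was -0.999 without replicate 2 and -0.36 without replicate 1 of NRCWE-045. For Upk1b the 6 differences lay between -0.19 and 0.25 (interval bounds from -0.56 to 0.60), and between -0.19 and 0.15 without the lowest lung. For Msln they lay between -0.28 and 0.46 (bounds from -1.19 to 1.24), and between -0.21 and 0.19 without it. The difference in the step from 18 to 54 µg between materials passed the test for 0 of the 5 genes (limma interaction terms, adjusted p from 0.999 to 0.99994). Of all 29310 units, 0 passed in any of these terms.

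All 5 genes had lower means at 54 than at 18 µg when the 3 materials were averaged, by amounts that did not pass the test. The differences were -0.07 (SE 0.24) for Msln, -0.14 (SE 0.20) for Upk3b, -0.14 (SE 0.11) for Upk1b, -0.23 (SE 0.24) for Wt1 and -0.16 (SE 0.15) for Lrrn4 (limma, adjusted p = 0.99986 for each). Of all tested units, 51.2% were below 0 in this comparison, 3.72% had an unadjusted p under 0.05 and 0% passed. Since the 5 genes move together from lung to lung, their common sign is not 5 separate results. Msln changed sign in 1 of 41 alternatives and the other four genes in 0. Without the lowest lung, which had 18 µg, the differences were -0.20 to -0.37. With slide as a block all 5 stayed below 0, from -0.36 to -0.22 (limma, adjusted p from 0.858 to 0.931). Within slides, all 5 were below 0 on slides 1, 2, 4 and 5, and 1 of 5 was on slide 3. Slides 3 and 5 each hold a single 18 µg lung. On slide 6, which holds the lowest lung and a single 54 µg lung, 0 of 5 were below 0.

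Lungs of the same group differed more in these genes than in most. The SD within groups was 0.67 for Msln, 0.56 for Upk3b, 0.30 for Upk1b, 0.69 for Wt1 and 0.42 for Lrrn4, against a median of 0.19 over all named genes. Only 0.997% of named genes had a larger SD than Msln, 1.73% than Upk3b, 15.9% than Upk1b, 0.95% than Wt1 and 5.33% than Lrrn4. Without the lowest lung these shares were 3.55, 5.12, 32.7, 2.3 and 10.4%. The 7 groups accounted for 6 to 23.4% of the variance of a gene and the 6 slides for 20.9 to 26.8%, without correction for the number of groups or slides.

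The 5 genes varied together from lung to lung. Over the 34 lungs the 10 pairs of genes had Pearson correlations of 0.675 to 0.921 (permutation test with 100000 resamples, two-sided, adjusted p of 3e-05 or less over the 10 pairs, the smallest possible unadjusted p being 1e-05). Spearman correlations were 0.499 to 0.877 (adjusted p of 0.00311 or less by the same test). Msln and Upk3b formed the closest pair (r = 0.921, rho = 0.877), followed by Upk3b and Lrrn4 (r = 0.892) and Wt1 and Lrrn4 (r = 0.87). Upk1b followed Wt1 (r = 0.675) and Msln (r = 0.69) least. All arrays share 1 reference RNA and the pairs share genes, so the 10 values are not independent.

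All 10 correlations stayed above 0 without the lowest lung, each lower than with it, and after group and slide means were taken out. Without that lung the correlations were 0.486 to 0.874, and without the 2 lungs farthest from the median of the first gene of each pair 0.385 to 0.847, lowest for Msln and Upk1b. After group and slide means were taken out they were 0.744 to 0.943. Within the 8 arrays of slide 1 they were 0.765 to 0.972, and within the 8 of slide 2 0.522 to 0.944. The other slides hold 4 or 5 arrays, too few for a correlation.

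The relation was seen in the lung channel. In Cy5 alone, scaled to a common distribution over arrays, the 10 correlations were 0.699 to 0.899. In Cy3 alone, the reference RNA hybridised to the same spots, they were -0.474 to 0.477 with a median of 0.107. Of the Cy3 pairs 2 passed the test, Upk3b with Wt1 below 0 and Upk1b with Lrrn4 above 0 (permutation test, adjusted p = 0.0237 and 0.0359). The SD over arrays was 0.30 to 0.60 for these genes in Cy5 and 0.07 to 0.26 in Cy3.

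**Figure D3:**
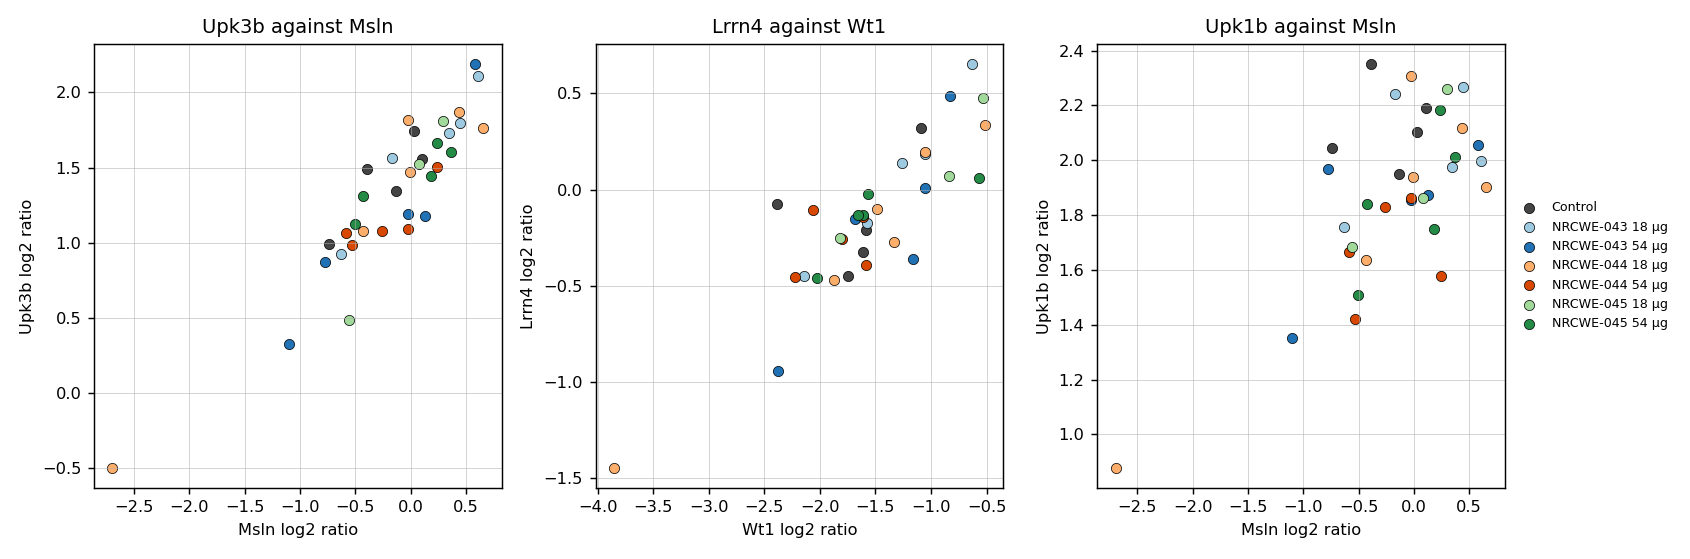
Log2 ratios of 3 pairs of mesothelial genes in 34 lungs, 1 point per lung, coloured by group. Upk3b follows Msln closely (r = 0.921), Lrrn4 follows Wt1 (r = 0.87) and Upk1b follows Msln more loosely (r = 0.69), with the groups mixed along each band and the same lung at the lower left of each panel.

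Each gene was also set against the mean of the other four, as z scores, among 17091 named genes. Upk3b (r = 0.928) and Lrrn4 (r = 0.92) each ranked 1, above every other named gene. Msln ranked 2 (r = 0.87), Wt1 6 (r = 0.821) and Upk1b 10 (r = 0.771). Upk1b, the gene with the least spread between lungs, was thus the one that followed the others least.

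The lung labelled replicate 6 of NRCWE-044 at 18 µg was the lowest of 34 for all 5 genes. Its log2 ratios were -2.69 for Msln, -0.49 for Upk3b, 0.88 for Upk1b, -3.85 for Wt1 and -1.45 for Lrrn4. In the same order these differed from the median of the other lungs by -2.67, -1.97, -1.06, -2.27 and -1.31. Its signals were still well above background in Cy5, at 2552 for Msln and 140 for Lrrn4. In Cy5 alone the array ranked lowest of 34 for every one of the 5 genes, while in Cy3 it ranked 19, 2, 20, 32 and 29 in the same order of genes.

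Over all genes that array resembled the others. Its median correlation with the others was 0.96, 61.6% of its probes were well above background in Cy5, and it was the lowest array for 2.33% of 17095 named genes. Only 26 named genes lay at least 1 log2 unit below the median of the other arrays there. Among the 10 farthest down, besides Msln, Wt1 and Upk3b, were Slc26a4 (-2.34), Slurp1 (-2.30), Cldn15 (-1.70), Aldh1a2 (-1.56), Chst4 (-1.55), Myl7 (-1.44) and Lgals2 (-1.40), all relative to that median. The other 5 lungs of its group had 0.13 ± 0.43 for Msln and -1.25 ± 0.51 for Wt1 (SD, n = 5), so the low values belonged to that lung and not to its group.

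The second lowest lung by the mean z score of the 5 genes was replicate 1 of NRCWE-043 at 54 µg, among the 5 lowest for each gene. Its ratios were -1.10 for Msln, 0.33 for Upk3b, 1.35 for Upk1b, -2.38 for Wt1 and -0.94 for Lrrn4. The highest was replicate 3 of NRCWE-043 at 18 µg, among the 5 highest for 4 genes. Both ends of the order by mean z score were exposed lungs, as were 29 of all 34 lungs. The controls ranked 9, 13, 17, 22 and 28 from the lowest. Taken from each gene's own lowest to its own highest lung, the range was 10.2-fold for Msln, 6.42-fold for Upk3b and 2.77-fold for Upk1b. It was 10.1-fold for Wt1 and 4.28-fold for Lrrn4. For Upk1b the highest lung was a control, at 2.35. Without the lowest lung the ranges were 3.38, 3.63, 2.00, 3.66 and 3.02-fold.

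**Figure D4:**
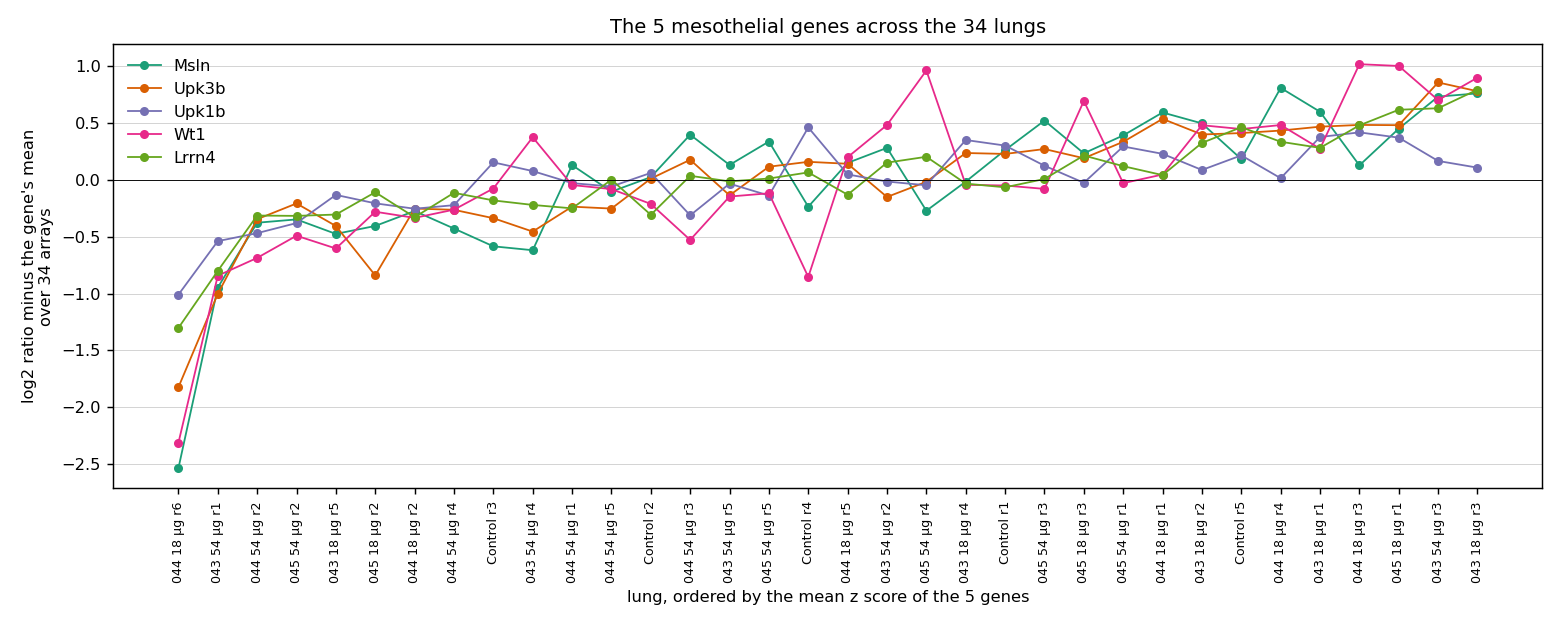
Log2 ratio minus the gene's own mean over 34 arrays for each of the 5 mesothelial genes, with the lungs ordered by the mean z score of these genes (r is the replicate number). The lines run together from replicate 6 of NRCWE-044 at 18 µg, where Msln is lowest, to replicate 3 of NRCWE-043 at 18 µg, and exposed and control lungs are mixed along the order.

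The 10 named genes whose pattern over the 34 lungs was most like the mean z score of the 5 included 2 from the list of other mesothelial genes. One of these, Aldh1a2, which makes retinoic acid, came first (r = 0.909), and the other, the tight junction gene Cldn15, second (r = 0.883). Sfrp2, a secreted modulator of Wnt signalling, had r = 0.876, the galectin Lgals2 0.845 and the complement gene C2 0.831. Then came Sbsn (0.83), Pcnx2 (0.802), the protease inhibitor Spink2 (0.79), Zfp185 (0.777) and the basement membrane gene Fras1 (0.776). Over 17090 named genes the median r was -0.00856 and the value at the 99th percentile 0.438, and 17 genes reached 0.7. Without the lowest lung, these 10 genes kept r of 0.638 to 0.867. The values describe lungs that share slides and 1 reference RNA and are given without a test.

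A list of 20 other genes used as mesothelial markers held 19 tested genes, with a median r of 0.377 with the 5. Besides Aldh1a2 and Cldn15, the highest were the membrane protein gene Gpm6a (0.689), the Wnt agonist Rspo1 (0.61), Nkain4 (0.548) and the transcription factor Bnc1 (0.52). The keratins Krt18 (0.397), Krt19 (0.326), Krt7 (0.221) and Krt8 (0.208), which airway and alveolar epithelium share, followed less. The lowest values were those of Tbx18 (0.0564), the hyaluronan synthase Has2 (0.0146), Anxa8 (-0.144) and Thbd (-0.295). In the lowest lung 17 of these 19 genes lay below the median of the other lungs, and the mean z score of the list was the lowest of 34. Some of the other lists stood high in that lung and some did not. The mean z score of 7 club cell genes was the highest of 34. Scgb1a1, the main secreted protein of club cells, lay 0.69 above the median of the other lungs and Cyp2f2 0.62 above it. Of the 7, 2 lay below that median, Bpifa1 at -0.68 and Scgb3a1 at -0.29 from it. The surfactant genes Sftpc and Sftpb lay 0.62 and 0.58 above the median. Of the 6 alveolar type 2 genes, 3 lay below it, with Slc34a2 at -0.58 and Abca3 at -0.45. That list as a whole ranked 19 from the lowest. The lists of the mesenchymal transition and of tumour suppressors each ranked 32 and that of immediate early and heat shock genes 31. Those of fat cells (rank 10), fibroblasts and liver (14 each), other mucins (17) and heart muscle (18) did not stand high. The part of these differences in the low mesothelial values was not tested.

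The other 15 lists had median r between -0.181 and 0.0436, which includes ciliated, club, alveolar and fibroblast markers. For the 10 genes of heart muscle the median r was -0.127. For 7 liver genes the median r was -0.0639.

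**Figure D5:**
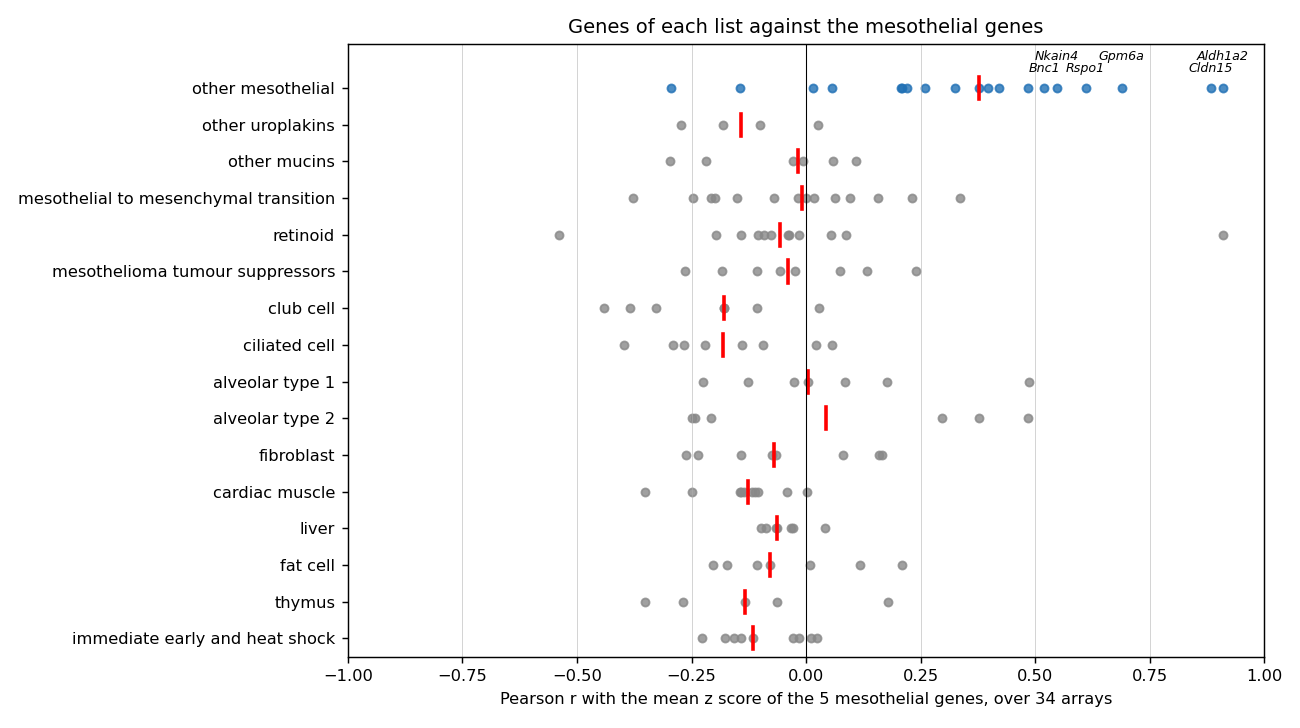
Pearson correlation over 34 lungs between each gene of 16 lists and the mean z score of the 5 mesothelial genes; points are genes and red bars list medians. The other mesothelial genes (blue) reach 0.909 with a median of 0.377, while the other medians lie between -0.181 and 0.0436; Aldh1a2 stands in 2 lists.

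Of the other mesothelial genes, 0 of 19 passed the test in exposed against control lungs, where 0% of all tested units passed. The median difference was 0.04 for all exposed groups and 0.01 at 54 µg, and the median over all tested units was -0.00029 and -0.0017. Slpi, a secreted inhibitor of neutrophil elastase that airway cells also make, had the difference with the smallest p of the list, 0.94 over all exposed groups (SE 0.30, limma adjusted p = 0.914) and 0.98 at 54 µg (SE 0.32, limma adjusted p = 0.622). Igfbp6, which binds insulin-like growth factors, had -0.29 at 54 µg (SE 0.11, limma adjusted p = 0.758) and Krt7 -0.25 (SE 0.12, limma adjusted p = 0.856).

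Related gene families showed the same absence of calls as the whole array, where 0% of all tested units passed against the controls. Of 4 other uroplakins Upk3a had 0.32 at 54 µg (SE 0.15, limma adjusted p = 0.861), and its r with the mesothelial genes was -0.182. Of 6 tested mucins Muc13 had 0.12 over all exposed groups (SE 0.05, limma adjusted p = 0.925). Of 14 tested genes of the mesothelial to mesenchymal transition, by which mesothelial cells turn into matrix-producing cells, 0 passed. The repressors Snai1 and Zeb1 of that list had -0.30 (SE 0.12) and -0.20 (SE 0.08) over all exposed groups (limma adjusted p = 0.922 for each). Of 12 retinoid genes 0 passed.

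Of 8 tumour suppressor genes that are lost in mesothelioma, 0 passed the test, as did 0% of all tested units. The Hippo pathway kinase Lats2 had -0.34 at 54 µg (SE 0.08, limma adjusted p = 0.382), the lowest adjusted p of the 136 list genes in these comparisons, and an r with the mesothelial genes of -0.108. Markers of other lung cells named by the same rule were Emp2 (-0.26 at 54 µg, limma adjusted p = 0.626) and Cldn18 (-0.31, 0.820) of alveolar type 1 cells and Cldn10 (-0.49, 0.884) of club cells. The fibroblast genes Tcf21, Col13a1 and Pdgfra had -0.71, -0.39 and -0.32 at 54 µg (limma adjusted p = 0.480, 0.627 and 0.859). Of the 8 genes of that list 5 were below 0 and 3 above, Dcn and Lum at 0.39 each and Pi16 at 0.29, and 0 passed the test. The heart genes Myh6 and Sln had -2.63 and -2.38 over all exposed groups (limma adjusted p = 0.936 and 0.973), and the stress gene Atf3 had 0.32 (limma adjusted p = 0.914).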

How the data were processed

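The authors scanned 1 two-colour array per mouse (34) and deposited median intensity values per spot and channel, those of the surrounding background, and flags (0 or 1 per spot, by Agilent Feature Extraction 11.0.1.1, per the file headers). They also deposited a table of log2 Cy5 over Cy3 ratios, used here as an alternative; how it was made is not given in the sources used here. Dyes were never swapped, per the labels' protocols.

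Background was corrected by normexp (offset 50), ratios were normalized by loess within arrays, control and irregular spots had weight 0, and repeated spots were averaged (limma 3.58.1, R 4.3.3). Genes were named through RefSeq (GRCm38.p6). Tested were the 29310 units that passed the scanner's background flag in Cy5 on 3 or more arrays, with 7 group means and Benjamini-Hochberg adjustment at 0.05. The number of arrays limits the precision. Replicates are separate mice, numbered in the order of deposit, and 1 control, by its treatment label, is titled as 0 µg of NRCWE-043. The method was tested on simulated data. Named were all members, up to 3 genes per list with the smallest unadjusted p under 0.05 in exposed or 54 µg against control lungs, and the 10 genes most alike. One gene that this rule names is not reported here. The genes and lists were chosen with earlier results of these data known. Alternatives covered background, normalization, channel, filter, probe choice, slide, variance prior, groups fitted and each array left out.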

Additional observations from a re-analysis of the deposited data

Results flagged for a closer look

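Sets of lungs were 30 (5 genes in 6 groups of 5 or 6). In 4 of them a lung's gap to its nearest neighbour exceeded Dixon's limit. Chance gives about 1 in 20 for a single set. Since the 5 genes vary together in the same lungs, the sets are not independent, and their count cannot be set against that rate. With 18 µg of NRCWE-044, replicate 6 stood below the other lungs in Msln (-2.69, gap 0.676 of the range) and in Upk3b (-0.49, gap 0.666 of the range). With 54 µg of NRCWE-044, replicate 3 stood above the others in Upk3b (1.51, gap 0.789 of the range). With 54 µg of NRCWE-043, replicate 1 stood below the others in Upk1b (1.35, gap 0.717 of the range). The causes were not tested.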

How the results depend on the processing

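The differences of the 5 genes were recomputed in 2380 combinations of comparison, gene and alternative, and 0 passed the test (lowest limma adjusted p 0.291, for Upk1b with 54 µg of NRCWE-044 and slide as a fixed block). Of the differences, 176 changed sign, 101 of 1240 with 1 array left out and 21 of 95 with slide as a fixed block. Upk1b with 54 µg of NRCWE-044 ran from -0.50 to -0.39. All 10 correlations kept their direction and passed under the alternatives run, including the omission of the lowest lung, which was chosen after seeing the data. The reference channel alone, where 2 pairs passed, is not counted among these alternatives. Correlations within single slides are given without a test. No paired analysis was possible because the labels number the mice across the whole study and not within groups. The numbers of lungs and of slides limit all differences.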
